A study of Sus scrofa with 12 samples.

Results

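Mitochondrial ribosomal proteins were followed in porcine blastocysts that arose either by parthenogenetic activation (PA) or in vivo (IVV). Members were all probes of the EMPV1 oligonucleotide array whose gene symbol begins with MRPL or MRPS followed by a number. They were 72 probes of 51 genes, out of 24908 probes, of which 10735 carry a gene symbol. By symbol, 41 probes of 29 genes belong to the large subunit (MRPL) and 31 probes of 22 genes to the small subunit (MRPS). A current pig gene table lists 77 such symbols, of which 26 were on no named probe here. Among the 26, MRPL58 is measured under its older symbol ICT1 and is described with the genes named otherwise.

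The 4 groups were PA hatched blastocysts (PA HB), IVV hatched blastocysts (IVV HB), PA expanded blastocysts (PA XB) and IVV expanded blastocysts (IVV XB), with 3 arrays each. Every array carried amplified RNA from a pool of 5 embryos, described as a biological replicate, beside a common reference RNA pool of oocytes and embryos up to day 11. PA embryos came from matured oocytes activated with calcium ionomycin and then 6-dimethylaminopurine, and were cultured in mNCSU-23 medium without a paternal genome. IVV embryos were collected from inseminated gilts, with 5.5 days given for IVV HB and 5 or 6 days for IVV XB. For PA embryos the labels give 7 h for PA HB and 5 or 6 h for PA XB, although the methods describe culture over days. Activation, absence of a sperm genome and culture in vitro go together in the PA groups and cannot be told apart.

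Mitochondria translate the few messages of their own DNA, which encode core subunits of the respiratory chain and of ATP synthase, on a dedicated ribosome. The RNA of this ribosome is transcribed inside the organelle, whereas all of its proteins are encoded in the nucleus, made in the cytosol and imported. Part of these proteins descend from proteins of the bacterial ribosome and part were added during the evolution of mitochondria. The small subunit decodes the message and the large subunit forms the peptide bond.

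All values are log2 ratios of the sample over the reference pool, so that a value of one probe is not a level to be set against another probe. A probe was called differentially expressed when limma gave an adjusted p of at most 0.05, by Benjamini-Hochberg over all 24908 probes, and the difference was at least 2-fold, which is 1 on the log2 scale. A gene was called when at least 1 of its probes was. Array medians over all probes lay between -0.09 and -0.02. The spread of the ratios on an array (median absolute deviation) was 0.603 to 0.726 in PA embryos and 0.388 to 0.475 in IVV embryos.

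Messages of mitochondrial ribosomal proteins were lower in PA embryos for a part of the genes of both subunits, at both stages. Between PA HB and IVV HB, 10 of the 72 probes (13.9%) were called lower, against 3.63% of all probes, and 0 were called higher, against 4.87% of all probes. At an unadjusted p of at most 0.05 in limma, 32 were lower, against 12.8% of all probes, and 2 higher, against 14.0% of all probes. Leaving out IVV HB replicate 1 left 3 probes called lower and leaving out PA HB replicate 2 left 5, and 1 or 2 probes were called higher under some alternatives. The 10 called probes stood for 9 genes, namely MRPL1, MRPL13, MRPL44 and MRPL51 of the large subunit and MRPS16, MRPS18C, MRPS24, MRPS28 and MRPS35 of the small subunit. Probes for the other 42 genes were not called. The median difference over the 72 probes was -0.43, beside 0.02 over all probes, and single probes ranged from -2.58 to 1.07.

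The direction was shared by many probes that were not called. Of the 72 probes, 53 (73.6%) had a difference below 0, beside 47.8% of all probes. Every PA HB array was below every IVV HB array for 26 probes (36.1%), against 14.3% of all probes, and above for 4 (5.56%), against 15.7% of all probes. With the adjusted p of limma alone and no limit on the fold, 17 probes were lower, against 5.84% of all probes. They included both probes of MRPL39, a protein of the large subunit with no counterpart in the bacterial ribosome, at -0.95 and -0.69.

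**Figure D1:**
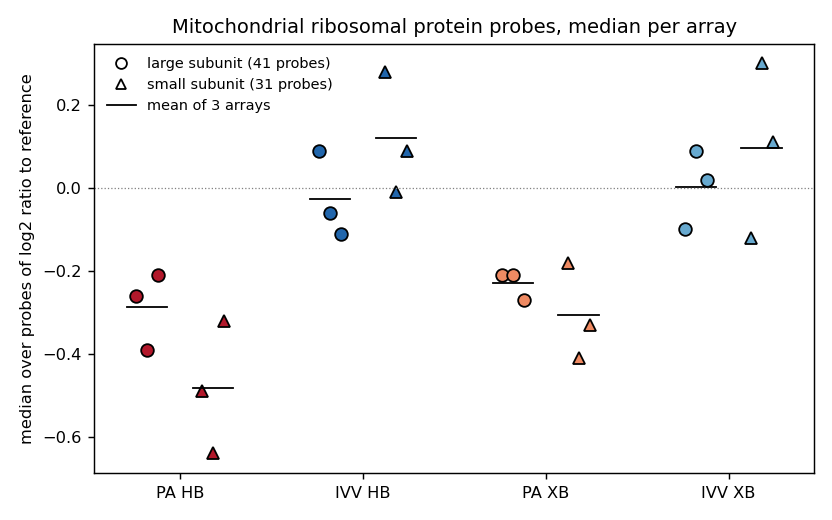
Median log2 ratio to the reference over the 41 large-subunit probes (circles) and the 31 small-subunit probes (triangles) on each array, for PA HB, IVV HB, PA XB and IVV XB, with the mean of 3 arrays as a line. The PA arrays were at -0.18 or below for both subunits, whereas the IVV arrays lay between -0.12 and 0.30.

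On the level of the array, the median over all 72 probes was -0.36, -0.52 and -0.27 on the PA HB arrays and 0.20, -0.02 and 0.04 on the IVV HB arrays. It was -0.20, -0.28 and -0.30 on the PA XB arrays and -0.11, 0.21 and 0.05 on the IVV XB arrays. The PA and IVV arrays did not overlap at either stage. Within a group the SD of this median between arrays was 0.12. Relative to the reference, 16 of the 72 probes had a group mean of -1 or below in PA HB and 4 in IVV HB, and the numbers were 16 in PA XB and 2 in IVV XB. The ratios of all probes also spread more widely on PA than on IVV arrays. The same count was not made over all probes, so these numbers cannot be read as particular to the members. The SD between arrays of one probe had a median over the members of 0.33 in PA HB, 0.25 in IVV HB, 0.26 in PA XB and 0.28 in IVV XB.

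In the large subunit, 4 genes were called lower in PA HB. MRPL1, the relative of the bacterial protein that forms the mobile stalk beside the tRNA exit site, had log2 ratios of -1.58, -2.88 and -2.00 in PA HB and of 1.25, 0.41 and -0.38 in IVV HB. No PA HB array reached the lowest IVV HB array, and MRPL1 fell by 2.58 ± 0.41 on the log2 scale (SE of the fit; limma, adjusted p = 0.00276), a 5.98-fold difference that was the largest fall of any member at this stage. In PA XB it was -1.02, -1.40 and -1.13, and in IVV XB 0.91, 1.46 and 0.21, again without overlap, a difference of -2.04 ± 0.41 (limma, adjusted p = 0.00474).

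MRPL51, which has no counterpart in the bacterial ribosome, had the second largest fall of the large subunit between PA HB and IVV HB and the largest between PA XB and IVV XB. Its ratios were -1.21, -2.54 and -1.13 in PA HB and 0.98, 0.32 and -0.16 in IVV HB. At the expanded stage they were -3.00, -1.50 and -1.42 in PA XB and 0.52, 0.65 and -0.14 in IVV XB. The groups did not overlap at either stage, with differences of -2.01 ± 0.46 between PA HB and IVV HB (limma, adjusted p = 0.0145) and -2.32 ± 0.46 between PA XB and IVV XB (limma, adjusted p = 0.00428). The call for hatched blastocysts, like that of MRPL44, was lost when either IVV HB replicate 1 or PA HB replicate 2 was left out.

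MRPL44, a further protein without a bacterial ribosomal relative that has the fold of an RNase III enzyme, was -0.92, -1.99 and -0.82 in PA HB and 0.20, 0.26 and -0.19 in IVV HB. It was -1.24, -0.85 and -1.16 in PA XB and -0.20, 0.04 and 0.26 in IVV XB. PA arrays were below IVV arrays throughout, by 1.34 ± 0.28 log2 units at the hatched stage (limma, adjusted p = 0.0101) and by 1.12 ± 0.28 at the expanded stage (limma, adjusted p = 0.0131). The expanded-stage call was lost once all arrays were given an equal spread.

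MRPL13, the relative of a bacterial protein that binds the ribosomal RNA early in assembly, had the lowest p of all members between PA HB and IVV HB. Its called probe 34012 gave -1.95, -2.26 and -2.08 in PA HB and -0.73, -0.69 and -1.03 in IVV HB. The narrow spread of both groups put the difference at -1.28 ± 0.19 (limma, adjusted p = 0.00209), with no overlap. In PA XB the ratios were -1.34, -1.67 and -1.64 and in IVV XB -0.66, -0.14 and -0.49, a difference of -1.12 ± 0.19 (limma, adjusted p = 0.00207). A different probe of MRPL13 was not called, with differences of -0.29 between PA HB and IVV HB and -0.62 between PA XB and IVV XB, and once all arrays were given an equal spread the call of probe 34012 was lost at both stages. The expanded-stage call was also lost without IVV XB replicate 2.

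In the small subunit, 5 genes were called lower in PA HB. MRPS35, which has no counterpart in the bacterial ribosome, was -1.50, -1.33 and -0.55 in PA HB and 1.03, 0.09 and 0.09 in IVV HB. It was -0.97, -1.19 and -1.16 in PA XB and 1.09, 1.22 and 0.51 in IVV XB. The groups were apart at both stages, by -1.53 ± 0.30 between PA HB and IVV HB (limma, adjusted p = 0.00769) and by -2.05 ± 0.30 between PA XB and IVV XB, with the lowest adjusted p of all members at the expanded stage (limma, 8.6e-04). The hatched-stage call was lost after quantile normalization.

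MRPS18C is one of several mitochondrial relatives of a single bacterial protein of the platform of the small subunit, and was the only member with more than 1 probe of which every probe was called at both stages. Probe 11879 gave -0.61, -1.43 and -1.34 in PA HB and 0.73, -0.01 and -0.29 in IVV HB, a difference of -1.27 ± 0.30 (limma, adjusted p = 0.017). Probe 38132 gave -1.33, -2.47 and -1.11 in PA HB and 0.76, -0.48 and -0.62 in IVV HB, a difference of -1.52 ± 0.43 (limma, adjusted p = 0.0349). Neither probe overlapped between the groups. At the expanded stage probe 11879 was -0.45, -1.02 and -1.08 in PA XB and 0.98, 1.16 and 0.55 in IVV XB, and probe 38132 was -1.79, -2.65 and -1.55 in PA XB and 0.68, 1.09 and 0.11 in IVV XB. The differences of -1.75 ± 0.30 (limma, adjusted p = 0.00199) and -2.62 ± 0.43 (limma, adjusted p = 0.0016) were again without overlap, and the second was the largest fall of any member at this stage. The hatched-stage calls of both probes were lost after quantile normalization and when either IVV HB replicate 1 or PA HB replicate 2 was left out. That of probe 11879 was lost without PA HB replicate 3 as well, and that of probe 38132 with an equal spread of the arrays.

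MRPS28, a relative of a bacterial protein that helps recruit the message, was called with 1 of its 3 probes. This probe, 38654, was -0.55, -1.16 and -1.09 in PA HB and 0.80, 0.22 and 0.21 in IVV HB, a difference of -1.34 ± 0.27 (limma, adjusted p = 0.00869). In PA XB it was -0.98, -1.41 and -0.63 and in IVV XB 0.05, 0.62 and -0.12, a difference of -1.19 ± 0.27 (limma, adjusted p = 0.00844). The groups did not overlap at either stage. The remaining probes were below 0 as well, at -0.37 and -0.62 between PA HB and IVV HB and at -0.25 and -0.77 between PA XB and IVV XB, and the mean of the 3 probes did not meet the criteria. The call was lost without IVV HB replicate 1 at the hatched stage and without IVV XB replicate 2 or PA XB replicate 2 at the expanded stage.

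MRPS24 and MRPS16, both relatives of bacterial proteins of the small subunit, completed the set. Probe 40737 of MRPS24 was -1.00, -1.72 and -1.98 in PA HB and 0.21, -0.77 and -0.45 in IVV HB, a difference of -1.23 ± 0.31 (limma, adjusted p = 0.0209). In PA XB it was -1.46, -1.54 and -2.13 and in IVV XB -0.12, 0.21 and -0.37, a difference of -1.62 ± 0.31 (limma, adjusted p = 0.00328). PA and IVV arrays of this probe were apart at both stages, but the second probe of MRPS24 was at -0.40 and -0.19 and was not called. The hatched-stage call of MRPS24 was lost without any of 4 arrays, namely IVV HB replicates 1 and 3 and PA HB replicates 2 and 3, and after either scaling of the arrays.

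MRPS16 was the only member called at the hatched stage alone. It was -1.26, -0.55 and -0.78 in PA HB and 0.11, 0.08 and 0.33 in IVV HB, without overlap, a difference of -1.04 ± 0.23 (limma, adjusted p = 0.0125). In PA XB it was -0.18, -0.28 and -0.37 and in IVV XB -0.60, -0.30 and 0.18, so that the groups overlapped and the difference was -0.04 (limma, adjusted p = 0.92). The change of this difference between the stages, -1.00 ± 0.32, did not pass the test of the interaction (limma, adjusted p = 0.947). The call was lost on leaving out any of 3 arrays, IVV HB replicates 1 and 3 and PA HB replicate 1, and after either scaling of the arrays.

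**Figure D2:**
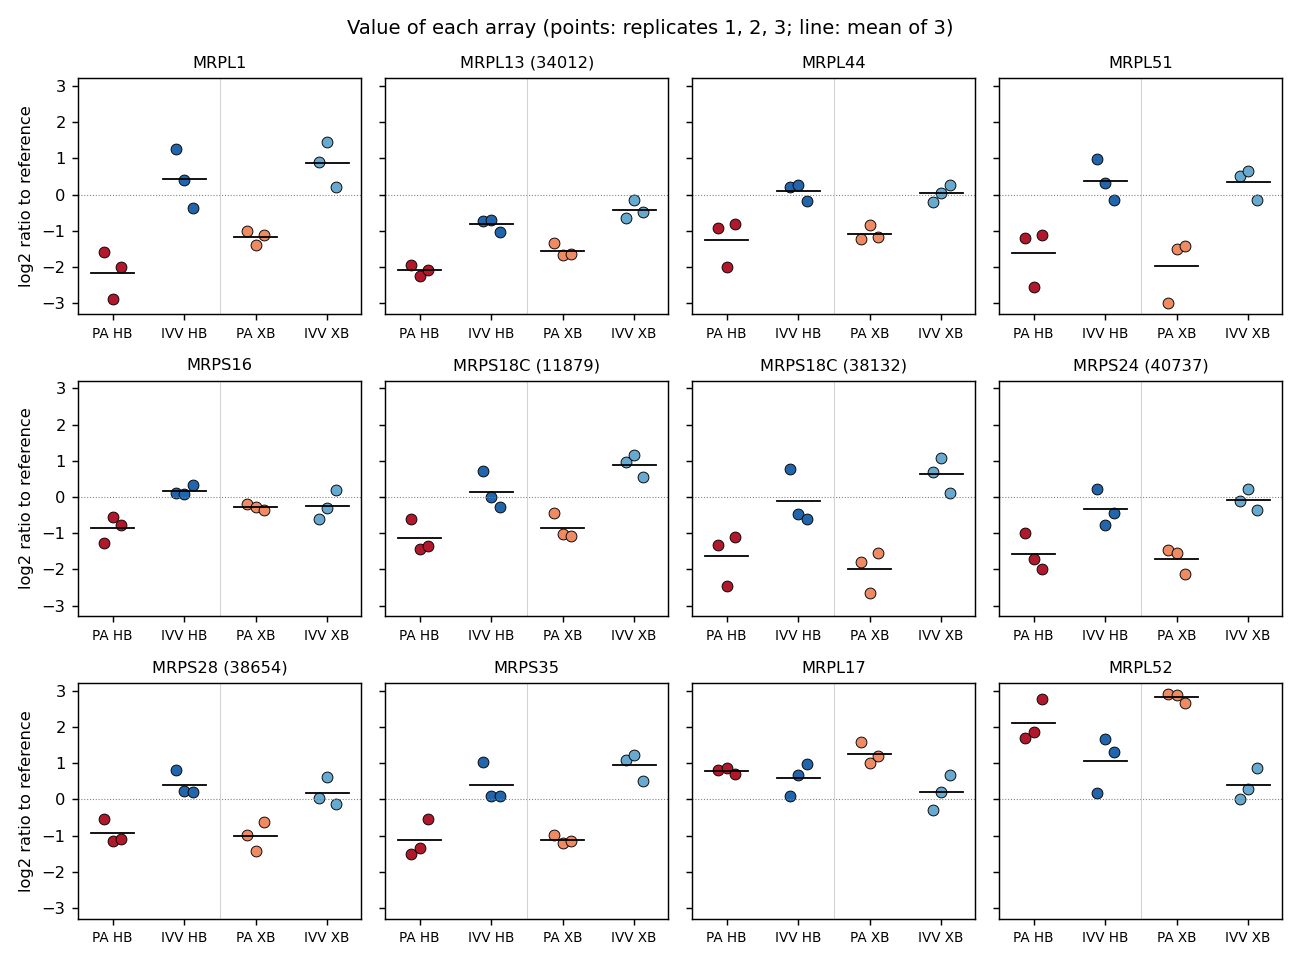
Log2 ratio to the reference (vertical axis, the same in all panels) on each of the 3 arrays (points) of PA HB, IVV HB, PA XB and IVV XB, with the group mean as a line, for the 10 probes called lower in PA HB and for MRPL17 and MRPL52. MRPL1 lay between -2.88 and -1.58 in PA HB and between -0.38 and 1.25 in IVV HB, and MRPL52 is the panel with PA XB farthest above IVV XB.

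The same comparison before hatching, PA XB against IVV XB, gave 12 probes of 11 genes called lower (16.7% of the 72, against 5.51% of all probes) and 2 probes of 2 genes called higher, against 7.04% of all probes. The other 38 genes were not called. The median over the 72 probes was -0.27, beside 0.03 over all probes, with a range from -2.62 to 2.43, and 52 were below 0. Every PA XB array was below every IVV XB array for 25 probes (34.7%), against 17.4% of all probes, and above for 5 (6.94%), against 19.8% of all probes.

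Of the genes lower in PA HB, all but MRPS16 were also called lower in PA XB. MRPL14, MRPL35 and MRPL48 of the large subunit were called lower in PA XB and not in PA HB. MRPL14, the relative of a bacterial protein at the interface of the 2 subunits, was -0.68, -1.35 and -0.55 in PA XB and -0.14, -0.02 and 0.60 in IVV XB, a difference of -1.00 ± 0.26 (limma, adjusted p = 0.016). MRPL35, also of bacterial descent, differed by -1.01 ± 0.30 (limma, adjusted p = 0.0315). The called probe of MRPL48, a protein of the central protuberance classed as mitochondria-specific, differed by -1.02 ± 0.26 (limma, adjusted p = 0.016). Between PA HB and IVV HB the same 3 probes were at -0.72, -0.55 and -0.89. The second probe of MRPL48 was not called, at -0.26 between PA HB and IVV HB and -0.23 between PA XB and IVV XB. All 3 calls lay close to the 2-fold limit, and each was lost with weighting of the arrays. Those of MRPL14 and MRPL48 were also lost after either scaling of the arrays, and that of MRPL48 with its probes averaged. Leaving out 1 array ended the call of MRPL14 (PA XB replicate 2 or IVV XB replicate 3), of MRPL35 (PA XB replicate 2 or any IVV XB array) and of MRPL48 (PA XB replicate 1 or IVV XB replicate 2).

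Both genes called higher in PA XB belonged to the large subunit. MRPL52, which has no counterpart in the bacterial ribosome, was 2.91, 2.88 and 2.67 in PA XB and 0.00, 0.30 and 0.88 in IVV XB. The groups were more than 1 log2 unit apart and the difference was 2.43 ± 0.37 (limma, adjusted p = 9.9e-04). In hatched blastocysts it was 1.70, 1.85 and 2.78 in PA HB and 0.18, 1.66 and 1.32 in IVV HB, where PA HB was narrowly above IVV HB on every array and the difference of 1.06 ± 0.37 did not pass the test (limma, adjusted p = 0.0771).

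MRPL17, the relative of a bacterial protein near the exit of the peptide tunnel, was the second gene above IVV XB. It was 1.59, 1.01 and 1.20 in PA XB and -0.29, 0.21 and 0.67 in IVV XB, a difference of 1.07 ± 0.27 (limma, adjusted p = 0.0146). In PA HB it was 0.80, 0.88 and 0.70 and in IVV HB 0.09, 0.67 and 0.99, with overlap and a difference of 0.21 (limma, adjusted p = 0.677). The call at the expanded stage was lost after either scaling of the arrays and without PA XB replicate 1 or IVV XB replicate 1 or 2, whereas that of MRPL52 was kept in all of these.

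**Figure D3:**
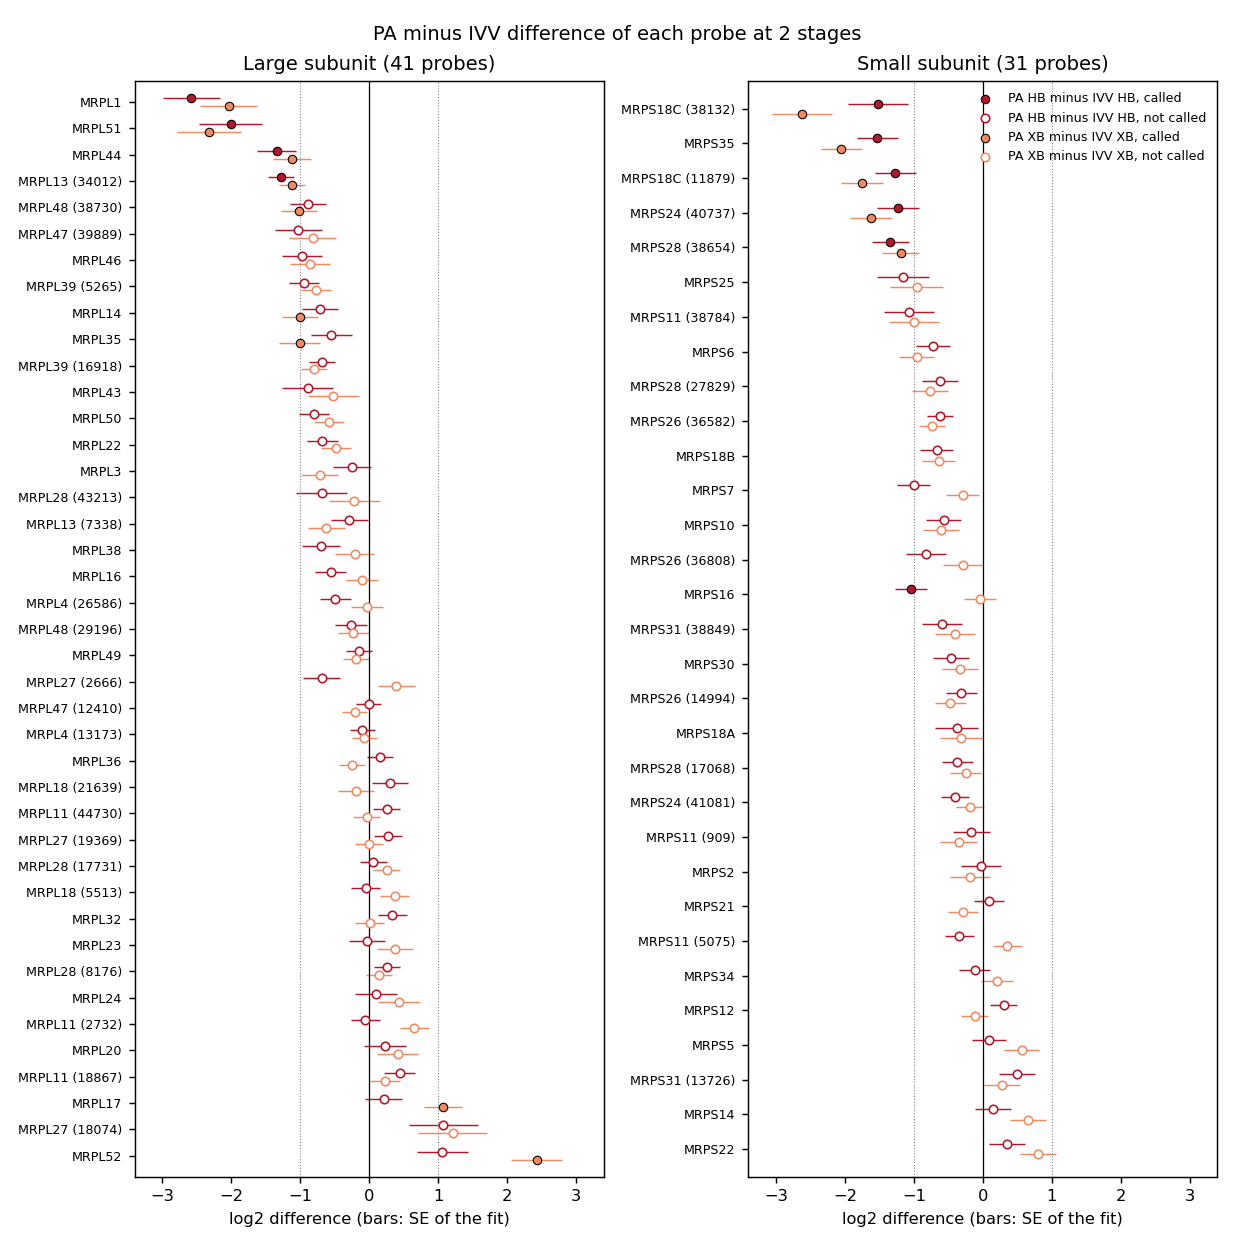
Log2 difference of every member probe (horizontal axis; bars are the SE of the fit) between PA HB and IVV HB (dark red) and between PA XB and IVV XB (orange), for the large and the small subunit, with called probes filled and 2-fold limits dotted; a number after a gene is its probe. The small subunit has no probe called higher, and its probes end at 0.80 (MRPS22, PA XB minus IVV XB), while the large subunit reaches 2.43 (MRPL52).

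The group means of the 2 comparisons share no array, and the members ranked similarly in both. The spread of a probe was estimated jointly over all groups, so a probe of small SE was more readily called at both stages. Of the 72 probes, 47 were below 0 at both stages, 14 above 0 at both and 11 changed sign. The 9 probes called lower at both stages were 90.0% of those lower in PA HB and 75.0% of those lower in PA XB. Over all probes, 586 were lower at both stages, 64.8% of those lower in PA HB and 42.7% of those lower in PA XB. Across the member probes Pearson's r between the differences at the 2 stages was 0.85, and across all probes 0.82. This is a description across probes, which are not independent and share arrays within a stage. Deviations of same-numbered PA HB and PA XB arrays also correlated, so the 2 comparisons are not independent of each other.

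**Figure D4:**
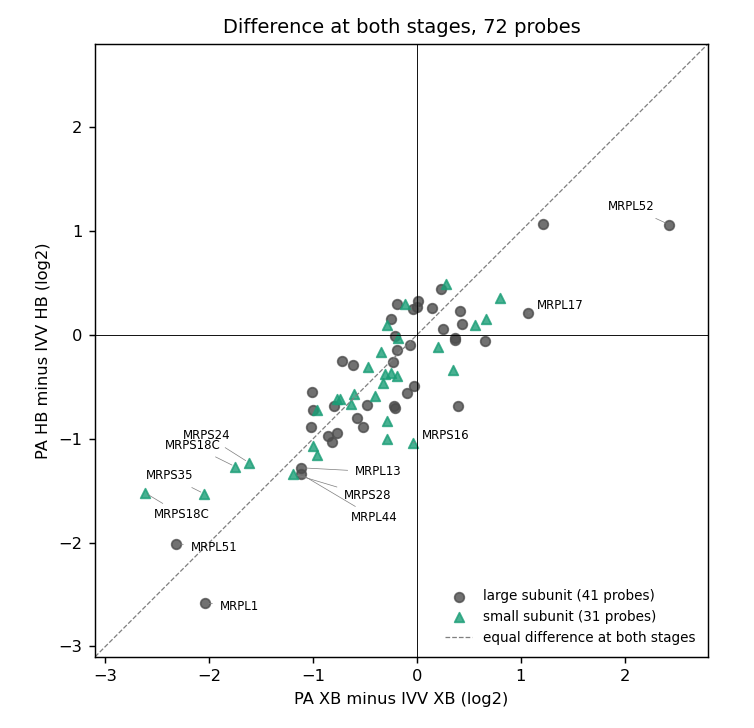
Difference between PA HB and IVV HB (vertical axis, log2) against the difference between PA XB and IVV XB (horizontal axis, log2) for the 72 probes, by subunit; the dashed line marks equal differences and names mark genes called lower in PA HB or higher in PA XB. Most probes lie below 0 on both axes, 47 of 72, and MRPS16 and MRPL52 lie away from the line.

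Averaged over both stages, 11 probes of 10 genes were called lower, against 4.54% of all probes, and 2 probes of 2 genes higher, against 6.37% of all probes. The fit treated all arrays as independent. Where same-numbered PA HB and PA XB arrays are alike, its SE for this average can be too small. A block on the replicate number kept all 13 calls. That block was shared by PA and IVV arrays, so it cannot check this. The calls that appeared only here were MRPS11 and MRPS25 among the lower and MRPL27 among the higher ones. MRPS25, which has no counterpart in the bacterial ribosome, differed by -1.06 ± 0.27 (limma, adjusted p = 0.00859). Probe 38784 of MRPS11, the relative of a bacterial platform protein, differed by -1.03 ± 0.25 (limma, adjusted p = 0.00725). Probe 18074 of MRPL27, whose bacterial relative reaches into the peptidyl transferase centre, was 1.14 ± 0.35 higher in PA (limma, adjusted p = 0.0257). MRPL52 was higher by 1.74 ± 0.26 (limma, adjusted p = 3.15e-04), and both calls of a rise were lost after quantile normalization. The calls of MRPL27, MRPS11 and MRPS25 were each lost without PA HB replicate 2 or PA XB replicate 2. Without IVV HB replicate 1 those of MRPL27 and MRPS11 were lost, that of MRPL27 also without IVV XB replicate 2 or replicate 3 of PA HB or PA XB, MRPS11 without IVV HB replicate 3 and MRPS25 without IVV XB replicate 3.

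A minority of the members were near 0 or above it. Among genes with a single probe, the smallest differences between PA HB and IVV HB were those of MRPS2 (-0.03), MRPL23 (-0.03) and MRPS5 (0.09), all 3 of bacterial descent, with overlapping groups. In the small subunit the largest positive differences averaged over the stages were 0.58 ± 0.19 for MRPS22 (limma, adjusted p = 0.0313, below the 2-fold limit), 0.41 for MRPS14 and 0.38 for 1 of the 2 probes of MRPS31. MRPS14 was far below the reference in all groups, at -4.19, -3.72 and -3.27 in PA HB and -3.83, -3.59 and -4.22 in IVV HB.

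The subunits were compared side by side, by counts and medians, since the proteins of a subunit are not replicates of it. Between PA HB and IVV HB the small subunit had 6 of 31 probes called lower (19.4%) and a median of -0.57, and the large subunit had 4 of 41 (9.76%) and a median of -0.26. Between PA XB and IVV XB the small subunit had 5 probes called lower (16.1%) and a median of -0.33, and the large subunit had 7 called lower (17.1%), 2 called higher and a median of -0.21. In single arrays the large-subunit median minus the small-subunit median was 0.23, 0.25 and 0.11 in PA HB and -0.19, -0.05 and -0.20 in IVV HB. At the expanded stage it was -0.03, 0.20 and 0.06 in PA XB and 0.01, -0.21 and -0.08 in IVV XB. The hatched groups were apart in this measure and the expanded groups overlapped. The gap between the subunit medians of the hatched-stage differences, 0.31 with all arrays, was 0.18 when IVV HB replicate 1 was left out and 0.20 when PA HB replicate 2 was.

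The gap between the subunits depended on how genes with several probes were counted. The gap at the hatched stage of 0.31 over probes was 0.03 when the probes of a gene were first averaged, and -0.05 over the more variable 50% of probes. MRPS30 and MRPS18A carry small-subunit symbols but sit in the large subunit of the mammalian mitochondrial ribosome. Counting them there left medians of -0.59 for the small and -0.29 for the large subunit between PA HB and IVV HB.

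Within the large subunit so defined, proteins classed as mitochondria-specific had the lower median. This class follows the naming of the ribosome structure and holds MRPS18A, and in the small subunit MRPS18B, which are related in sequence to the same bacterial protein as MRPS18C. The 14 probes (12 genes) of the mitochondria-specific proteins had a median difference of -0.75 between PA HB and IVV HB, and 13 were below 0. The 29 probes (19 genes) of proteins classed with a bacterial counterpart had a median of -0.05, and 17 were below 0. Each class held 2 of the 4 called probes. Between PA XB and IVV XB the medians were -0.55 and -0.04, in the same order. The exception among the mitochondria-specific proteins was MRPL52, the only one of them above 0 at the hatched stage. The gap of -0.70 between the classes at the hatched stage was -0.62 with the probes of a gene averaged and -0.42 over the more variable 50% of probes. With MRPS18A and MRPS18B counted among the bacterial relatives it was -0.74 at the hatched stage and -0.53 at the expanded stage. In the small subunit the medians of the classes lay close together, at -0.61 for the mitochondria-specific proteins and -0.57 for those with a bacterial counterpart between PA HB and IVV HB. The classes were assigned from general knowledge, and no test was made between them.

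Genes with several probes showed how far a call rested on the probe. Of the 15 genes with 2 or 3 probes (36 probes), 5 had probes of opposite sign between PA HB and IVV HB, and 3 had probes that differed by 1 log2 unit or more. The median range within a gene was 0.83 and the largest was 1.76, in MRPL27. The probes of MRPL27 were at 1.07, 0.27 and -0.69 between PA HB and IVV HB and at 1.21, 0.00 and 0.39 between PA XB and IVV XB. In MRPS11 they were at -1.07, -0.17 and -0.34 between PA HB and IVV HB and at -1.00, -0.35 and 0.35 between PA XB and IVV XB. What part of the transcript each probe covers was not used here. Of the 36 probes from genes with 1 probe 5 were lower in PA HB, with a median of -0.50, and of the 36 from genes with several 5 were lower, with a median of -0.39.

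**Figure D5:**
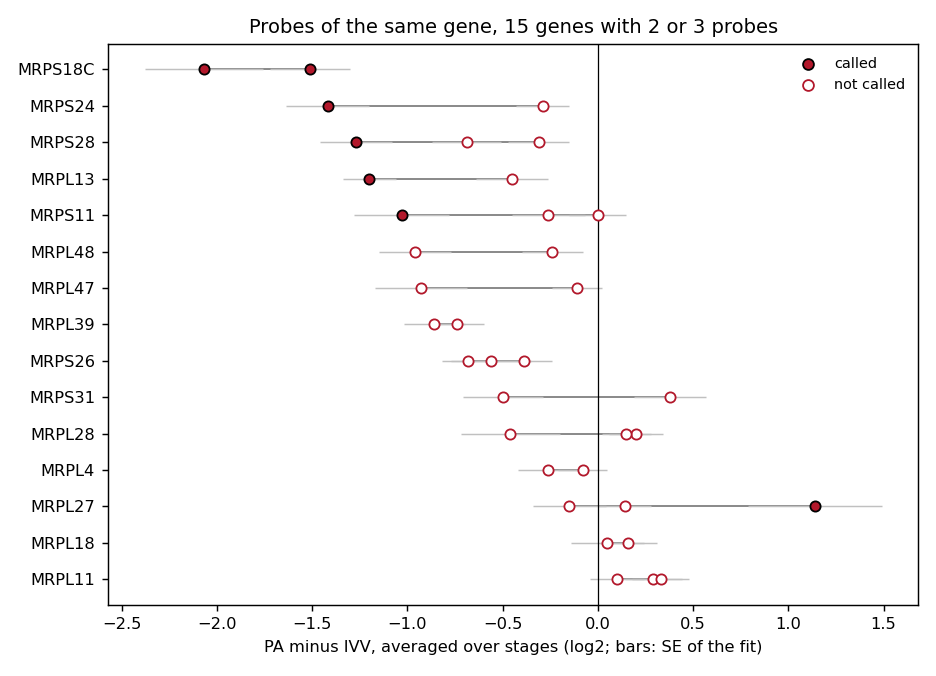
PA minus IVV difference averaged over the stages (horizontal axis, log2; bars are the SE of the fit) for each probe of the 15 genes with 2 or 3 probes, joined by a line within a gene, with called probes filled. Only MRPS18C has every probe called, and the probes of MRPL27 run from -0.15 to 1.14.

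Hatching itself was not accompanied by a called change of any member. Between IVV HB and IVV XB limma called 0 of the 72 probes, against 0.149% of all probes, with 2 at an unadjusted p of at most 0.05 (6.36% of all probes) and a lowest adjusted p of 0.627 (MRPS18C, probe 11879, -0.75 ± 0.30). Between PA HB and PA XB limma also called 0, against 0.00803% of all probes, with 6 at an unadjusted p of at most 0.05 (6.35% of all probes). The lowest adjusted p was 0.464 (MRPL11, probe 44730, 0.69 ± 0.19). Member medians were -0.01 in IVV and -0.02 in PA embryos, and single probes ranged from -0.75 to 0.66 in IVV and from -0.97 to 0.69 in PA embryos.

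For the difference between the hatching changes of PA and IVV embryos limma called 0 members, against 0.00803% of all probes, with 6 at an unadjusted p of at most 0.05 (4.93% of all probes). The lowest adjusted p was that of MRPS16. The largest difference was that of MRPL52, at -1.37 ± 0.52 (limma, adjusted p = 0.994). In simulated data of this design a change counted as recovered by its adjusted p in limma and its direction, without the 2-fold limit of the calls. So counted, 2-fold changes were recovered for 42% of probes between IVV HB and IVV XB and for 32% between PA HB and PA XB. In the difference of hatching changes 8% were recovered. The fold limit can only lower these shares, so 2-fold changes of members could have been missed.

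Other genes of mitochondrial gene expression were counted for context. A list of mitochondrial ribosomal proteins named otherwise held 12 probes of 5 genes. It included OXA1L, which is an insertase of the inner membrane and not a ribosomal protein. Of the 12 probes, 1 was lower in PA HB (8.33%, against 3.63% of all probes) and 2 in PA XB (16.7%, against 5.51% of all probes). Their median, with OXA1L included, was -0.56 at both stages. ICT1, a ribosome-bound peptidyl-tRNA hydrolase of the large subunit that is now called MRPL58, was lower by 1.44 ± 0.26 log2 units in PA HB than in IVV HB (limma, adjusted p = 0.00542) and by 1.57 ± 0.26 in PA XB than in IVV XB (limma, adjusted p = 0.00174). For DAP3, a GTP-binding protein of the small subunit, 1 of 3 probes was lower in PA XB, by 1.74 ± 0.36 (limma, adjusted p = 0.0054). This call was lost with the probes averaged. Mitochondrial translation factors (9 probes of 6 genes) had no called probe at either stage (4 and 1 at an unadjusted p of at most 0.05 in limma), with medians of 0.05 between PA HB and IVV HB and 0.02 between PA XB and IVV XB. A list of this size would hold few calls at the shares of all probes, so their absence says little.

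Of mitochondrial tRNA synthetases and related enzymes (11 probes of 7 genes) 1 probe was lower at each stage, that of QRSL1, a subunit of the mitochondrial glutaminyl-tRNA amidotransferase, and its other 2 probes were not called. The called probe differed by -1.78 ± 0.38 between PA HB and IVV HB (limma, adjusted p = 0.0106), a call lost without IVV HB replicate 1, and by -1.79 between PA XB and IVV XB (limma, adjusted p = 0.00562). Assembly and rRNA maturation factors (12 probes of 8 genes) had 1 probe higher in PA HB and 2 in PA XB. These were 1 of the 4 probes of TFB1M, an rRNA methyltransferase, at 1.80 ± 0.55 in PA HB (limma, adjusted p = 0.0463) and 2.22 in PA XB (limma, adjusted p = 0.0124), and at the expanded stage HSD17B10, a subunit of mitochondrial RNase P, at 1.83 ± 0.32 (limma, adjusted p = 0.00227). The call of TFB1M was lost after either scaling of the arrays, with the probes averaged, and without replicate 2 or 3 of the PA group at either stage. It was also lost without IVV HB replicate 1 or 3 at the hatched stage and without IVV XB replicate 2 at the expanded stage. Of factors of mitochondrial DNA replication, transcription and RNA stability (9 probes of 8 genes) 1 was lower in PA HB and 2 in PA XB. The second in PA XB was LRPPRC, which stabilizes mitochondrial messages, at -1.61 ± 0.43 (limma, adjusted p = 0.0178). Its call was lost with an equal spread of the arrays, and without replicate 1 or 2 of IVV XB or 2 or 3 of PA XB. TFAM, which packages and transcribes mitochondrial DNA, was lower by 1.81 ± 0.31 in PA HB than in IVV HB (limma, adjusted p = 0.00403) and by 1.42 ± 0.31 in PA XB than in IVV XB (limma, adjusted p = 0.00719). Protein import subunits (22 probes of 13 genes) had 1 probe lower (4.55%) and 2 higher (9.09%) in PA HB, with a median of -0.10. In PA XB 3 were lower (13.6%) and 2 higher (9.09%), with a median of -0.02. Among all probes 3.63% were lower and 4.87% higher in PA HB, and 5.51% and 7.04% in PA XB.

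Cytosolic ribosomal proteins and the respiratory chain, counted in the same way, also had more probes called lower than higher. Among 82 probes of 47 cytosolic ribosomal proteins, 14 were lower (17.1%) and 4 higher (4.88%) in PA HB, with a median of -0.38, and 22 were lower (26.8%) and 7 higher (8.54%) in PA XB, with a median of -0.46. The shares higher were close to those of all probes, 4.87% and 7.04%, and the shares lower stood beside 3.63% and 5.51%. Among 78 probes of 52 genes of the respiratory chain and ATP synthase, 16 were lower (20.5%) and 0 higher in PA HB (4 higher at an unadjusted p of at most 0.05 in limma), with a median of -0.62, and 19 were lower (24.4%) and 3 higher (3.85%) in PA XB, with a median of -0.53. No test was made between these lists and the members.

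Markers of cell types moved between the same groups. Of 9 probes of 6 oocyte and zona pellucida genes, 3 were higher in PA HB and 5 in PA XB, and their median on an array was -2.40 to -0.99 in PA HB, -3.58 to -2.63 in IVV HB, -2.41 to -1.58 in PA XB and -3.42 to -2.78 in IVV XB. Of 10 probes of 6 trophectoderm genes, 1 was lower (KRT18) and 1 higher (KRT8) in PA HB, and 4 were higher in PA XB. Among all probes 3.63% were lower and 4.87% higher in PA HB, and 7.04% were higher in PA XB. The second probes of KRT18 and KRT8 were not called in PA HB. By quantitative PCR the paper reports KRT8 as lower in PA HB than in IVV HB, opposite to the called probe. POU5F1, the only measured gene of the inner cell mass list, was not called with either of its 2 probes, and none of 5 probes for cumulus and granulosa cell genes was called. The array medians of these 5 probes were nevertheless apart, at 0.22 to 0.53 in PA HB and -0.13 to 0.04 in IVV HB, and at 0.14 to 0.19 in PA XB and -0.20 to 0.01 in IVV XB. Those of the trophectoderm probes were 0.36 to 1.14 in PA HB and 0.58 to 0.76 in IVV HB, which overlapped, and 0.66 to 0.87 in PA XB and -0.13 to 0.38 in IVV XB, which did not. Their part in the differences of the members was not tested. In pooled whole embryos fewer cells of a type and less RNA per cell cannot be told apart.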

How the data were processed

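RNA of 12 pools of embryos was amplified, labelled with Cy5 and hybridized with a Cy3-labelled reference pool on the EMPV1 array. As the authors deposited them, the values are log2 ratios (sample to reference), made in FlexArray by subtracting the background and applying loess within each array. None was missing, every column matched a sample, and no pair of arrays was identical. The direction of the ratio was checked with oocyte genes, whose array medians lay below the reference pool in all groups, and the base of the logarithm against the scale of the study's supplement. No normalization between arrays was added. Array number limits the precision. Spot intensities were not used here, so background correction, a filter on dim spots and slide effects were not varied.

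Group means of PA HB, IVV HB, PA XB and IVV XB were estimated jointly in limma 3.58.1 (R 4.3.3, with version 1.17.8 of data.table), which left 8 residual degrees of freedom beside 5.64 from the prior. Moderated tests were adjusted by Benjamini-Hochberg over 24908 probes, with calls at 0.05 or below and 2-fold or more. Symbols came from the platform's annotation of the probes. All 51 were current in the RefSeq gene list, and the 4 member probes whose accession matched a RefSeq transcript had the same symbol there. Tables used pandas 2.3.3 and numpy 2.4.6, and figures matplotlib 3.10.9, in Python 3.11.15.

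Members, lists, classes and named genes were chosen with earlier results of these data known. Genes named were those called in any comparison (with every array for those of lowest p), the single-probe genes nearest to 0, and the largest falls and rises of each subunit. MRPL39 and the genes of other lists were named after their values were seen. Of the blood markers only PTPRC was measured, and it was not called.

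Replicate numbers were checked for pairing. Deviations of same-numbered PA HB and PA XB arrays correlated at 0.454, 0.321 and 0.22, so pairing by these numbers was run as an alternative. Those of PA HB and IVV HB correlated at 0.225, 0.135 and 0.0164 and those of PA XB and IVV XB at -0.0762, -0.151 and 0.0493, and were not taken as pairs. Same-numbered arrays of IVV HB and PA XB, which differ in origin, correlated at 0.325, 0.259 and -0.0146. Those of IVV HB and IVV XB correlated at 0.025, -0.132 and 0.201, and IVV HB replicate 1 with IVV XB replicate 2 at 0.32. The correlations therefore do not single out a pairing of the PA arrays. Alternatives were an equal spread of all arrays (scaling), quantile normalization, blocking on the replicate number, array weights, averaging the probes of a gene, keeping the more variable 50% of probes, no fold limit, and each array left out in turn. The fit was tested on simulated data, in which 3-fold changes were recovered for 74% of probes between PA HB and IVV HB. Recovery was judged by adjusted p and direction, without the fold limit. The simulated noise was independent between arrays. Far fewer probes were changed than the 3151 that passed the adjusted p between PA HB and IVV HB, so this share need not hold for the data.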

Additional observations from a re-analysis of the deposited data

How the results depend on the processing

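The fall of the member median between PA HB and IVV HB, PA XB and IVV XB, and their average kept its direction under every alternative run. Counts and sizes moved as follows, with the cause not tested unless the alternative itself shows it. For PA HB against IVV HB, 17 probes were lower with no fold limit and 6 genes with the probes of a gene averaged. The count of higher probes was 1 after scaling, 1 with the replicate block, 2 with array weights and 1 over the more variable 50% of probes. The median was -0.29 after scaling and -0.69 over the more variable 50%, and the large minus small median was 0.03 with probes averaged and -0.05 over the more variable 50%. Leaving out 1 array gave 3 to 13 lower (3 when IVV HB replicate 1 was left out, 5 when PA HB replicate 2 was), 0 to 1 higher, a median of -0.53 to -0.33 and a large minus small median of 0.18 to 0.41.

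For PA XB against IVV XB, 7 genes were lower with probes averaged, and the count of higher probes was 4 with no fold limit and 1 after quantile normalization. The median was -0.60 over the more variable 50%, and the large minus small median was 0.22 after quantile normalization and -0.10 over the more variable 50%. Leaving out 1 array gave 8 to 14 lower, 1 to 3 higher (1 without IVV XB replicate 1 or 2), a median of -0.40 to -0.22 and a large minus small median of 0.11 to 0.23. Averaged over the stages, 27 were lower with no fold limit and 6 with probes averaged, and the count of higher was 4 with no fold limit, 0 after quantile normalization and 1 with probes averaged. The median was -0.22 after scaling and -0.62 over the more variable 50%, and the large minus small median 0.03 with probes averaged and -0.02 over the more variable 50%. Leaving out 1 array gave 9 to 12 lower, 1 to 2 higher, a median of -0.42 to -0.30 and a large minus small median of 0.17 to 0.37.

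No alternative called a member between IVV HB and IVV XB, between PA HB and PA XB or in the difference of hatching changes. Leaving out 1 array gave medians of -0.08 to 0.06, -0.10 to 0.00 and -0.16 to 0.01 and large minus small medians of -0.07 to 0.03, -0.23 to 0.01 and -0.15 to 0.06 in these 3, and the last was 0.02 after scaling. With the replicate block 13 probes were lower and 1 higher in PA HB against IVV HB, all 10 of the calls without it among them, and the pairing of PA HB with PA XB changed no call of their comparison. Of the 10 probes lower in PA HB, 6 kept the call after scaling and 5 after quantile normalization. Of the 14 called in PA XB, 9 and 10 kept it.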
